A study of Mus musculus with 4 samples.

Results

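The genes described here encode the proteins of the small (40S) subunit of the cytoplasmic ribosome. They were chosen by symbol alone: every gene written as Rps, a number and at most 1 of the endings a, a1, x or l, together with Rpsa and Fau. Kinases of the Rps6k family, Rps19bp1 and pseudogene symbols were left out. This gave 33 of the 32285 genes in the count tables. The annotation of mouse build GRCm38.p6 lists all 33 as protein coding and places them on 14 chromosomes, with 9 on chromosome 7.

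The small subunit binds the mRNA, scans it for a start codon and decodes it, while the large (60S) subunit joins amino acids. The genes of both subunits are expressed in every cell type and belong to the terminal oligopyrimidine (TOP) mRNAs, whose transcripts begin with a C followed by a stretch of pyrimidines. Through that stretch mTOR and its effector Larp1 set how well the mRNAs are translated, and in neurons this control has been tied to long-lasting synaptic plasticity and memory.

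The study asked what gene expression marks the hippocampus while an active place avoidance (APA) memory is maintained. Spatial gene expression was measured with 10x Visium, an array of barcoded capture spots, in male ArcCreERT2::eYFPflx mice on a C57BL/6 background at 3 to 4 months of age. Trained mice (n = 2) learned to avoid a shock zone on a rotating arena, and Untrained mice (n = 2) had the same sessions with no active shock zone. All 4 mice carried the Arc-driven, 4-hydroxytamoxifen-inducible Cre and the floxed eYFP reporter, all received 4-hydroxytamoxifen, all had a retention test, and tissue was taken 3 days later. The Arc promoter limits the tag to cells that were active, but the counts used here are from all spots, tagged or not. Each mouse gave 1 coronal section, 10 µm thick, and the section is the replicate. A spot covers several cells, so no value below is from a single cell, and fewer cells of a type cannot be told apart from less RNA per cell.

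The annotated starts of the members can be searched for the pyrimidine stretch of TOP mRNAs. Windows of 30 bases around each annotated start were read from RefSeq on GRCm38.p6, with the first transcribed base just after the middle of the window, for the 25 members that the RefSeq table holds. Capitals mark a run of at least 7 C or T bases that comes within 5 bases of the start. These windows are shown because they cover members that the results turn on both with such a run and, for Rps2, Rps12 and Rpsa, without it.
Fau (chr19:6057932-6057961, plus strand): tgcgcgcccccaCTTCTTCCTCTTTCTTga
Rps10 (chr17:27635230-27635259, minus strand): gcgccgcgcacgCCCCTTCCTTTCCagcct
Rps18 (chr17:33955651-33955680, minus strand): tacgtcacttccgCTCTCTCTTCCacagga
Rps6 (chr4:86857353-86857382, minus strand): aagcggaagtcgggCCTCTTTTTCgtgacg
Rps27 (chr3:90213634-90213663, minus strand): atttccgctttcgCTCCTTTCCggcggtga
Rps15a (chr7:118116133-118116162, minus strand): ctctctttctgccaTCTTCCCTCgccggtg
Rps24 (chr14:24490663-24490692, plus strand): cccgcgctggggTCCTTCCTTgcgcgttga
Rps27l (chr9:66946071-66946100, plus strand): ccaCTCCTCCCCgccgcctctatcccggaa
Rps2 (chr17:24720048-24720077, plus strand): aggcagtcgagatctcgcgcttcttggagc
Rps12 (chr10:23787195-23787224, minus strand): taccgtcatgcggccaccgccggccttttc
Rpsa (chr9:120127751-120127780, plus strand): gtgggttatttaaggacgtcatttccggcc
Such a run was present in 11 of the 25 members (44%) and in 16.4% of the 27025 genes in the table. The run of Rps27l is among the 11 but lies wholly before the annotated start. The annotated start was a C in 44% of the members and in 18.9% of all genes in the table. In Fau, which encodes a ubiquitin-like protein fused to the ribosomal protein S30, the run was 16 bases long. A missing run says only that no such stretch comes within 5 bases of the annotated start. The Rps12 window, for example, ends in a stretch of 7 that lies farther away. An annotated start can also lie some bases from the one that a cell uses. The entries for Rps14, Rps20, Rps27a and Rps29 were among the 8 not in the table.

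The sections held 3560294 to 10330015 unique molecular identifiers (UMIs, each a captured mRNA molecule) over 2359 to 3055 spots, and Untrained 1 was the shallowest. All 33 members were detected in every section, from 218 UMIs for Rps27l in Untrained 1 to 17690 for the most counted member in Trained 2. The tissue is labeled hippocampus, but the sections also held cortex, thalamus, hypothalamus and other areas. Spots were therefore assigned to 14 regions by marker genes, none of them a member. Each region had at least 20 spots in each section (CA3 of Untrained 1 had the fewest, 20). The regions held 8550 of the 10940 spots, 980 of them in CA1, CA3 or the dentate gyrus (DG). A region's own marker list was highest in that region in all 4 sections except for white matter and meninges (3 of 4), ependyma (2) and hypothalamus (1), so these names are the weakest. Trained 2 stood apart from the other sections before any comparison of members. Its mitochondrial share was 6.83% of UMIs against 11.6% to 12.2%, its choroid plexus markers summed to 533 UMIs per 1000000 (CPM) against 2468 to 5535, and its counts differed more from each other section than those differed among themselves (chi-square per degree of freedom of at least 23.6 against 4.43 to 8.45). The libraries shared 1330 of 4153 spot barcodes, as arrays of 1 design do.

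The share of mRNA molecules that came from small-subunit genes differed by region. Over whole sections the 33 members held 2.27% (Trained 1), 2.20% (Trained 2), 1.89% (Untrained 1) and 2.17% (Untrained 2) of UMIs. The 95% Wilson interval reached at most 0.0142 percentage points to each side, which covers counting error only. Hypothalamus (2.70% ± 0.272, SD, n = 4 sections), white matter (2.57% ± 0.177), ependyma (2.55% ± 0.469) and choroid plexus (2.51% ± 0.304) had the highest shares. CA3 (1.80% ± 0.164), thalamus (1.81% ± 0.140), upper-layer cortex (1.84% ± 0.128) and layer 5 cortex (1.93% ± 0.0816) had the lowest. Between these ends lay medial habenula (2.42% ± 0.133), DG (2.33% ± 0.179), meninges (2.24% ± 0.0703), striatum (2.22% ± 0.136), CA1 (2.10% ± 0.188) and layer 6 cortex (2.02% ± 0.145). In each of the 4 sections, hypothalamus, white matter and choroid plexus all lay above CA3, thalamus, upper-layer cortex and layer 5 cortex. No 2 neighbors in this order had ranges over sections that were apart. Medial habenula, DG, meninges and striatum also lay above the 4 lowest regions without overlap (at least 2.05% against at most 2.03%). Ependyma ranked from 1 (3.10% in Trained 1) to 8 of 14 (1.95% in Untrained 1). The median number of UMIs per spot, averaged over sections, was 1195 in white matter, 2028 in hypothalamus, 2006 in thalamus and 2793 in CA3. The part of depth in the order was not tested. Across spots within a section, which says nothing of depth between regions, the share and the UMI count had a Spearman correlation of -0.156 to 0.0047 in the 4 sections. The spots within a section share its library and are not replicates.

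**Figure D1:**
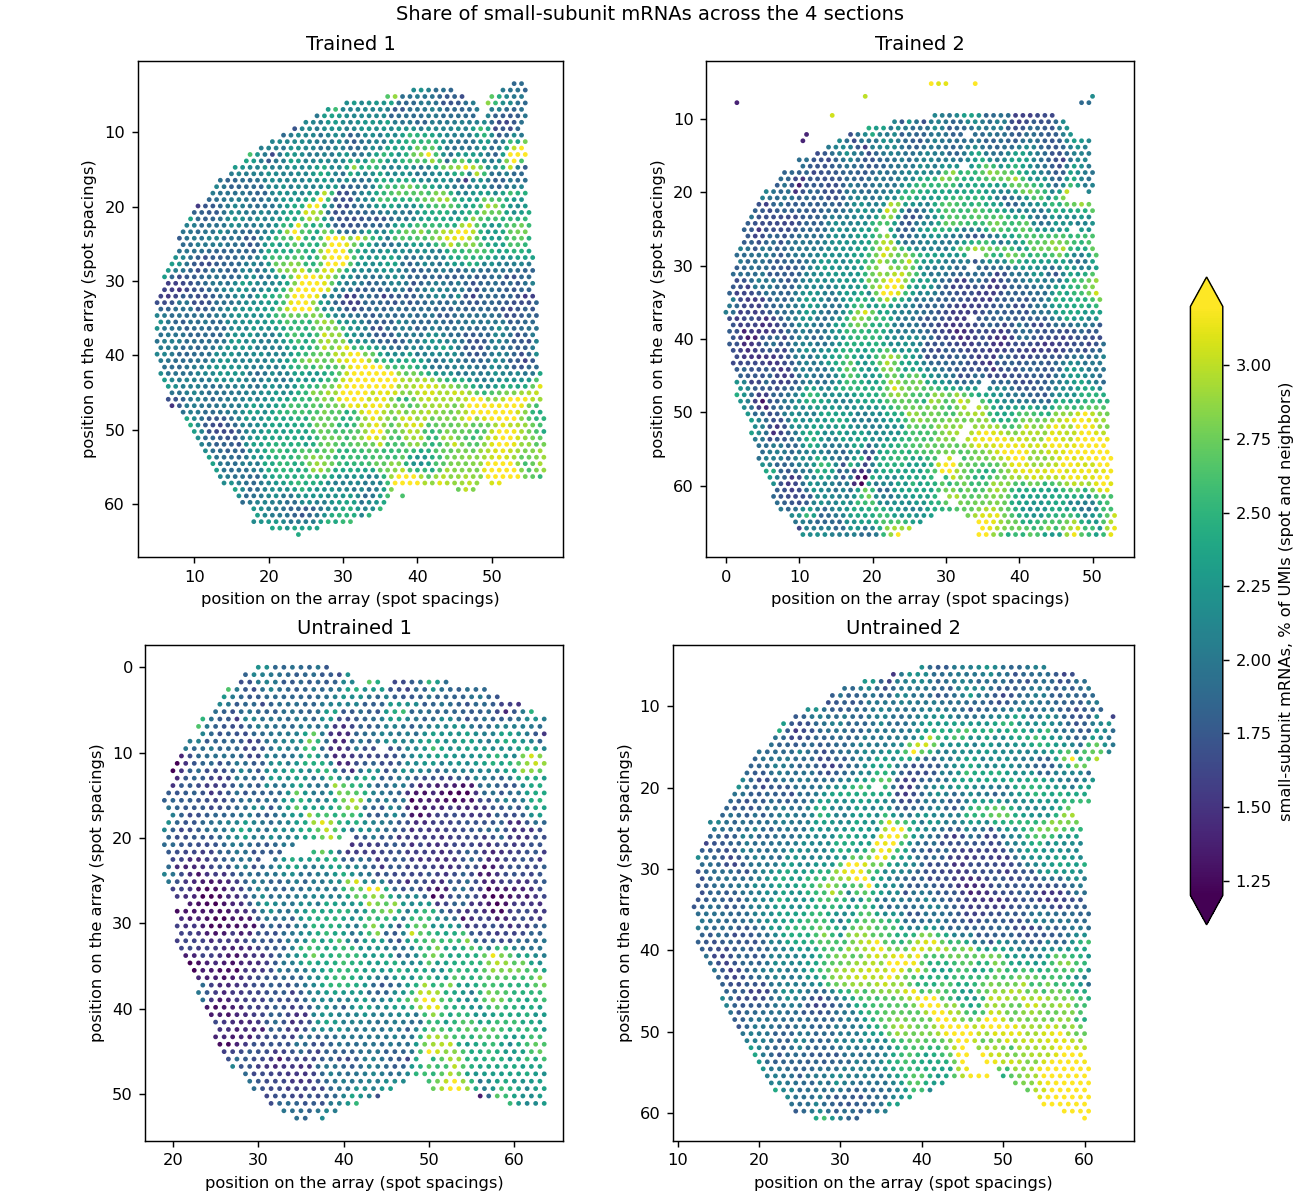
Each panel is 1 section and each dot a spot at its position on the array, with both axes in spot spacings; color gives the percent of UMIs held by the 33 small-subunit genes, pooled over the spot and its neighbors. Adjacent spots share counts through this pooling, so smooth areas arise by construction. Untrained 1 is lower as a whole (1.89% of UMIs against 2.17% to 2.27%).

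Within the hippocampus the share ran from DG through CA1 to CA3 in every mouse. In DG, the granule cell field that receives the cortical input, it was 2.41% (Trained 1), 2.53% (Trained 2), 2.11% (Untrained 1) and 2.29% (Untrained 2). In CA1, the output field, it was 2.16%, 2.31%, 1.86% and 2.07% in the same order. In CA3, with its recurrent pyramidal cells, it was 1.81%, 1.97%, 1.58% and 1.86%. DG was highest and CA3 lowest in each mouse, and over the 4 mice DG and CA3 did not overlap while CA1 overlapped both. DG exceeded CA3 by 0.530 ± 0.0707 percentage points (SD of the difference, n = 4) and CA1 by 0.235 ± 0.0165, and CA1 exceeded CA3 by 0.295 ± 0.0675. Each difference had 1 sign in 4 of 4 sections, for which the exact two-sided sign-flip permutation test gives p = 0.125, the smallest that 4 sections allow.

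**Figure D2:**
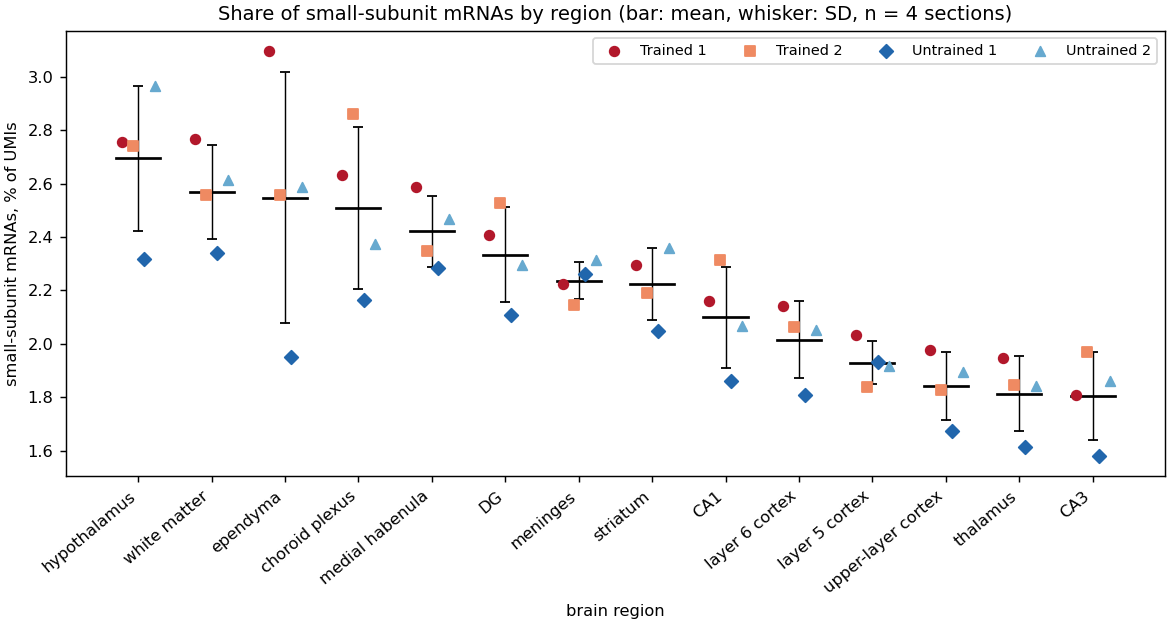
Percent of UMIs held by the 33 genes (vertical axis, which does not start at 0) in each region (horizontal axis, ordered by mean), with 1 symbol per section, a bar for the mean and whiskers of 1 SD (n = 4). Hypothalamus, white matter and choroid plexus lie above CA3, thalamus, upper-layer cortex and layer 5 cortex in each section, and the ependyma points are the most spread (SD 0.469).

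The members were then compared 1 by 1. Region sums were compared within sections by the quasi-likelihood test of edgeR, each region against the mean of the others, with Benjamini-Hochberg adjustment over all 8418 genes tested and a threshold of 0.05. Of 462 member-region pairs, 186 passed, 81 higher and 105 lower. Of all genes, 1.91% (meninges) to 32.5% (thalamus) passed in a region, higher or lower. Of the 186 pairs, 162 had the same sign in 4 of 4 sections. Without Trained 2, 165 pairs passed. Of the 33 members, 15 had their highest fitted value in choroid plexus, 11 in hypothalamus, 6 in white matter and 1 in ependyma, while 15 had their lowest in CA3, 7 in thalamus and 6 in upper-layer cortex. Every member passed in at least 1 region, from 1 region for Rps14, a protein of the platform, up to 8.

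In hypothalamus 29 of 33 members were higher (14.8% of all genes were higher there), with a median log2 difference of 0.30. Without Untrained 2, 19 passed. The ubiquitin fusion Rps27a had 1123, 1448, 908 and 1220 CPM in the hypothalamus of Trained 1, Trained 2, Untrained 1 and Untrained 2 against 885, 1053, 686 and 822 in the whole sections, so it was higher in each mouse. Its log2 difference was 0.44 (SE 0.07, adjusted p = 1.15e-07). Fau was 0.34 and Rps26, at the mRNA exit channel, 0.45 higher. Rps3, at the mRNA entry channel, was 0.27 higher, and Rps6, the protein that S6 kinases phosphorylate, 0.34 higher. Of the 4 members that did not pass, Rps14 was at 0.11, Rps27l at 0.02 and Rps29 at 0.19.

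In white matter, where myelinating oligodendrocytes prevail, 24 of 33 members were higher (13.5% of all genes), with a median of 0.25. These spots also had the highest interneuron marker sums of any region in each section. The sums were 3260 CPM (Trained 1), 3184 (Trained 2), 2603 (Untrained 1) and 1890 (Untrained 2), against at most 1747 in any other region. The part of these cells in the values was not tested. Rpsa, which also serves as a precursor of the laminin receptor, was highest with a log2 difference of 0.50 (SE 0.08, adjusted p = 2.5e-07). It had 842, 922, 751 and 791 CPM there and 615, 653, 578 and 575 CPM in the whole sections, without overlap. Rps12, a protein of the subunit's beak, followed with 0.49, then Rps24 with 0.42 and Rps9 with 0.41.

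In choroid plexus, the secretory epithelium of the ventricles, 20 of 33 members were higher (10.1% of all genes), with a median of 0.35, and 11 of the 20 had that sign in 4 of 4 sections. Rps27l stood out at 1.60 and is described below. Rps12 was 0.73 higher (SE 0.11), Rps20 0.65, Rps15a 0.64 and Rps27 0.62. In Trained 2 the choroid plexus spots were less pure than elsewhere: their own markers summed to 26796 CPM against 105422 to 169692, and their white matter markers to 24378 against 6911 to 11312. Without Trained 2, 17 members were higher. On plain totals fewer members passed than in the main fit, as given below with the processing.

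At the low end, in thalamus, 31 of 33 members were lower (14.3% of all genes), and the remaining 2 were Rps13 at -0.14 and Rps27l at -0.19. The median was -0.28. Rps15a was lowest at -0.50 (SE 0.07, adjusted p = 5.38e-09), with 397, 429, 313 and 347 CPM against 504, 545, 395 and 486 in the whole sections. Rps19, whose human gene is mutated in Diamond-Blackfan anemia, was at -0.47, the zinc finger protein Rps27 at -0.45 and Rps23, at the decoding center, at -0.45.

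In upper-layer cortex 26 of 33 members were lower (7.25% of all genes), with a median of -0.28, led by Rps20 (-0.50), Rps27l (-0.48) and Rps12 (-0.46). In layer 5 cortex 24 were lower (4.91% of all genes), 14 of them in 4 of 4 sections, with a median of -0.27, led by Rps9 (-0.52, SE 0.09). Layer 5 rested on few libraries: 6 members passed without Trained 2, 10 without Untrained 2, 13 without Trained 1 and 26 without Untrained 1. In layer 6 cortex 5 were lower (4.95% of all genes), among them Rps27l, Rps28, Rps21 and Rpsa. DESeq2 passed 18 there, and edgeR 1 without Untrained 2, 2 without Trained 1 and 8 without Untrained 1. In this and the other regions the shares of all genes are those of edgeR with all sections. Counts by DESeq2 or without a section have no such share beside them.

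In CA3, 19 of 33 members were lower (3.77% of all genes) and none higher, with a median of -0.32. Rps27 was lowest at -0.57, followed by Rps23 at -0.55, and Rps27a was at -0.46. Rps27 had 679, 560, 598 and 552 CPM in CA3 and 945, 655, 751 and 939 in the whole sections. Rps23 had 533, 463, 437 and 479 CPM in CA3. Rps6 was at -0.38, with 318, 275, 460 and 420 CPM, so that its Untrained values were above its Trained ones (log2 difference of Trained and Untrained in CA3 of -0.58, adjusted p = 0.931, edgeR). In the hippocampal spots as a whole Rps6 had 451, 347, 442 and 466 CPM, so CA3 was not below them in Untrained 1. Without Trained 1 only 3 members passed in CA3 and without Untrained 2, 11, in the region with the fewest spots (20 to 46 per section).

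In DG 3 members were higher (9.95% of all genes), and 3 of 33 is 9.09%. Rps2, at the mRNA entry of the decoding channel, had 580, 752, 554 and 617 CPM in DG, 447, 485, 406 and 460 in CA1 and 373, 541, 437 and 405 in CA3, so that DG led in each section. Its log2 difference was 0.44 (SE 0.09, adjusted p = 3.58e-05). Rps7 was 0.24 and Rps3a1 0.23 higher. With Untrained 1 left out 1 member passed, and with any other section left out 2. In CA1 no member passed edgeR (11.1% of all genes passed in either direction), 3 had an unadjusted p under 0.05 (21.5% of all genes had), and DESeq2 passed 2.

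In striatum 4 members were higher (10.6% of all genes), Rps29 (0.30), Rps27 (0.24), Rps19 (0.23) and Rps23 (0.22), but none passed without Trained 1 or without Untrained 2, 1 without Untrained 1 and 3 without Trained 2. In ependyma 1 member passed (2.91% of all genes were higher), and 0 to 4 members with 1 section left out, 0 without Trained 1 and 4 without Untrained 1; DESeq2 passed 13. Medial habenula and meninges had none by edgeR (9.18% and 1.91% of all genes passed in either direction), with 4 and 1 members under an unadjusted 0.05 (19.9% and 10.5% of all genes), and DESeq2 passed 1 and 0 there. In medial habenula 1 member passed without Untrained 1, and plain totals also passed members, as given below with the processing.

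**Figure D3:**
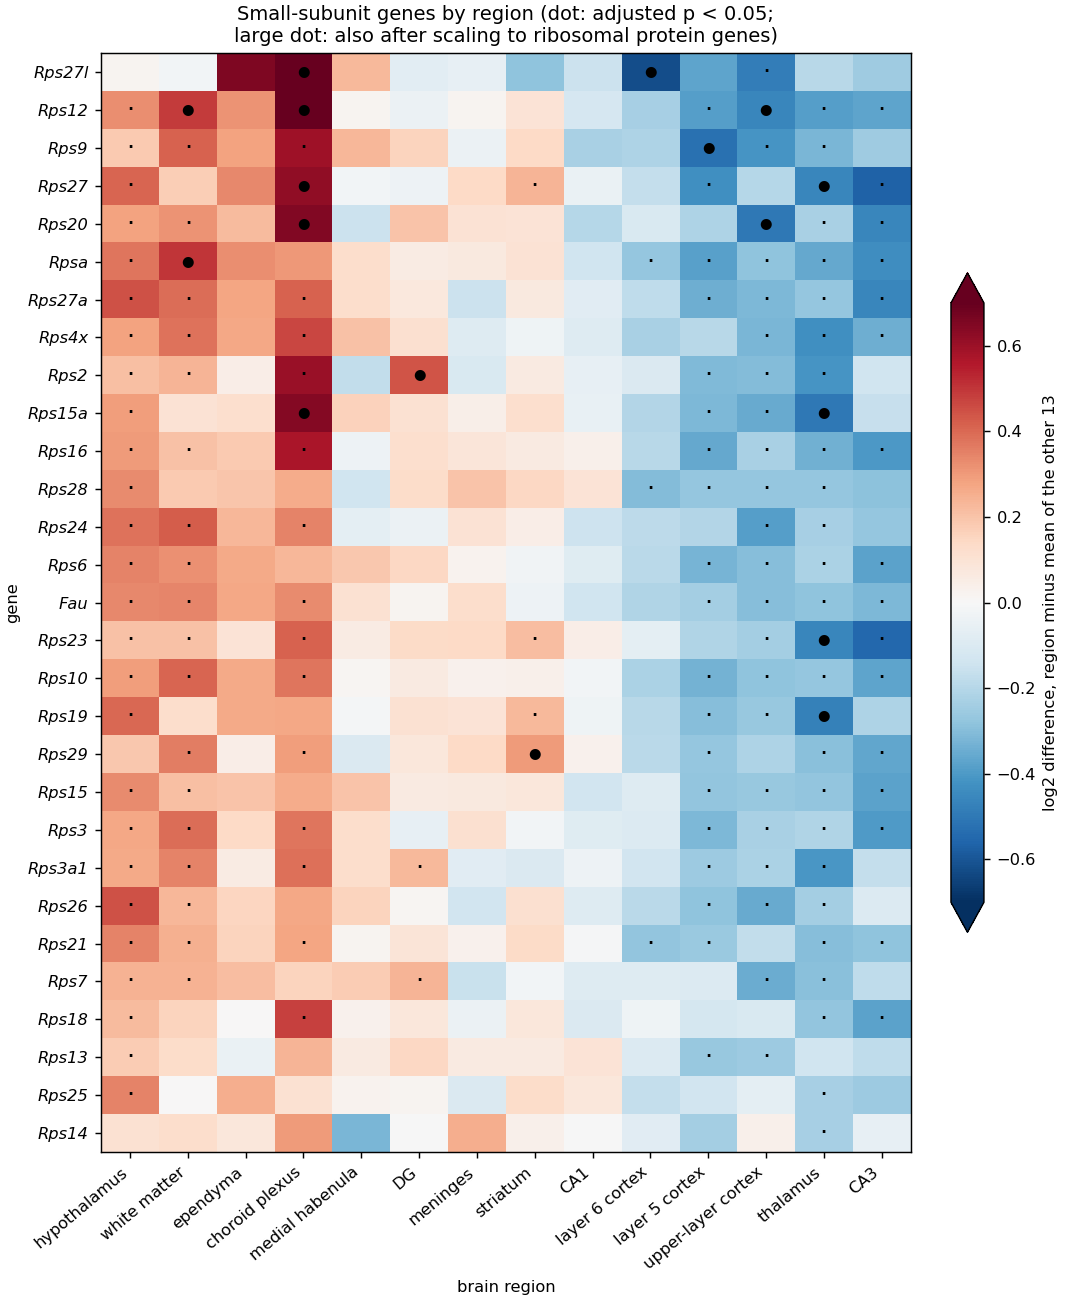
Fitted log2 difference of 29 of the 33 genes (rows) in each region (columns) against the mean of the other regions, with the color scale ending at ±0.7; dots mark pairs that passed at 0.05 and larger dots those that also passed after scaling to the ribosomal protein genes. Columns are mostly of 1 color, blue in CA3, thalamus and cortex and red in hypothalamus, white matter and choroid plexus, and Rps27l in choroid plexus (1.60) lies past the end of the scale.

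The large-subunit genes were fitted alongside, and the difference between the subunits was not tested. Of 49 tested, 37 were higher in hypothalamus, 31 in white matter and 24 in choroid plexus, and 35 were lower in thalamus, 32 in upper-layer cortex, 27 in layer 5, 16 in CA3 and 11 in layer 6, against the shares of all genes given above for these regions. In ependyma 10 were higher, and in CA1 4 were lower (3.18% of all genes). The extremes were Rpl22l1 (0.70) and Rpl10 (0.48) in hypothalamus, Rpl41 (0.81) and Rpl7 (0.62) in choroid plexus, Rpl28 (0.49) and Rpl13 (0.36) in white matter, Rpl10 (-0.54) and Rpl41 (-0.47) in thalamus, and Rpl35 (-0.49) and Rpl24 (-0.48) in CA3. Of 12 other TOP mRNAs, 7 were higher in hypothalamus, with the elongation factor subunit Eef1g at 0.52 and the nucleolar Npm1 at 0.44, and 1 was lower, Tpt1 at -0.20. In upper-layer cortex 7 were lower, Eef1d by -0.55 and the elongation factor Eef1a1 by -0.54. Of 29 initiation and 40S-bound factors, 0 to 5 passed in a region, higher or lower. The highest share was 17.2%, in choroid plexus and in thalamus, where 17.6% and 32.5% of all genes passed. Examples were Eif1b in CA3 (0.74) and, in choroid plexus, Eif1 (0.48), Eif4g2 (0.45) and Eif3j1 (-1.72). Of 15 assembly factors tested, Nop56 was higher in hypothalamus (0.46), Pno1 higher in striatum (0.50) and Nop58 lower in white matter (-0.91). Of 13 signaling genes tested, the mTOR brake Tsc2 was higher in DG (0.50), Rheb higher in layer 5 (0.33) and thalamus (0.19), Rps6ka3 higher in striatum (0.83) and Tsc1 lower in thalamus (-0.61).

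To see which members differed beyond the ribosome as a whole, counts were also scaled to the sum of all ribosomal protein genes. On that scale 24 of 462 pairs passed (5.19%), against 22.8% of all gene-region pairs, and 19 passed on both scales, all 19 with the same sign. In choroid plexus these were Rps27l (1.26 on the ribosomal scale), Rps12 (0.40), Rps20 (0.31), Rps15a (0.30) and Rps27 (0.29). In white matter they were Rpsa (0.25) and Rps12 (0.24), in DG Rps2 (0.35) and in striatum Rps29 (0.22). On the low side they were Rps15a (-0.23), Rps19 (-0.20), Rps23 (-0.18) and Rps27 (-0.18) in thalamus, Rps20 (-0.25) and Rps12 (-0.20) in upper-layer cortex, Rps9 (-0.25) in layer 5 and Rps27l (-0.46) in layer 6. The 5 pairs that passed only on the ribosomal scale were Rps14 in hypothalamus (-0.20), medial habenula (-0.37) and upper-layer cortex (0.29), and Rps25 in upper-layer cortex (0.19) and white matter (-0.24). Rps25, in the head of the subunit, is known for its role in internal ribosome entry.

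Rps27 and Rps27l are the only pair of paralogs among the members, and they differed by region. Rps27l, a p53-inducible copy, had 228, 152, 207 and 209 CPM in choroid plexus (29, 16, 7 and 28 UMIs) and 71.8, 85.4, 61.2 and 68.1 CPM in the whole sections. Its choroid plexus values were above its whole-section value in each mouse, with a log2 difference of 1.60 (SE 0.21, adjusted p = 1.43e-09). Rps27 had 1359, 952, 976 and 1212 CPM in choroid plexus and 945, 655, 751 and 939 in the whole sections. Rps27l supplied 14.4%, 13.8%, 17.5% and 14.7% of the pair's UMIs in choroid plexus (mean 15.1% ± 1.65, SD, n = 4) and 7.06%, 11.5%, 7.54% and 6.76% in the whole sections, so choroid plexus was above the whole section in 4 of 4 mice. In layer 6 cortex Rps27l was lower, with 41.9, 70.1, 52.1 and 55.2 CPM (log2 difference of -0.62, adjusted p = 0.00372). In CA3 of Untrained 1 it had 0 of 43466 UMIs, which allows up to 69.0 CPM (3 counts), above the CA3 value of Trained 1. Reads can be shared with near copies: 40.9% of the 91-base stretches at the 3′ ends of Rps27 transcripts also occur in Rps27rt, and 49.9% of those of Rps18 in Gm10260 and Gm11361, so the counts of Rps27 and Rps18 are uncertain to that extent.

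The make-up of the small subunit's mRNA, each member as a percent of all small-subunit UMIs, set 1 section apart. In Trained 2, 23 of 33 members lay outside the other 3 sections by more than the range of those 3, 12 higher and 11 lower, against 1 member in Trained 1, 1 in Untrained 1 and 0 in Untrained 2. The same count was not made for other genes. The counts of Trained 2 as a whole also stood apart, as given above, so the shift is not shown to be particular to these members. Rps29, a small zinc-binding protein of the head, held 7.34%, 5.35%, 8.23% and 8.13% in Trained 1, Trained 2, Untrained 1 and Untrained 2. Rps27 held 4.17%, 2.97%, 3.96% and 4.32%, and Rps25 2.43%, 1.79%, 2.40% and 2.37%. All 3 were lowest in Trained 2, and for Rps29 Trained 1 was also below both Untrained sections. The ubiquitin-type fusions went the other way: Fau held 4.28%, 5.34%, 4.18% and 4.15% and Rps27a 3.91%, 4.78%, 3.62% and 3.78%. Rps20 held 2.84%, 3.59%, 2.76% and 2.67%.

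The shift was present throughout the section and not in 1 area. Trained 2 had the lowest percent of Rps27 and Rps23 in 14 of 14 regions and of Rps29 and Rps25 in 13, and the highest of Fau in 14 and of Rps27a in 13. Over all 462 member-region pairs it was the highest or lowest section in 317, against 171, 253 and 183 for Trained 1, Untrained 1 and Untrained 2. The other Trained section mostly lay with the Untrained ones, though not for Rps29 over whole sections. The mitochondrial share and the choroid plexus markers were low in this section as a whole, as given above. Its mitochondrial share was the highest of the 4 in the hippocampal spots (12.3% against 10.1% to 11.9%) and in DG (16.0%). Their part in the shift was not tested.

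**Figure D4:**
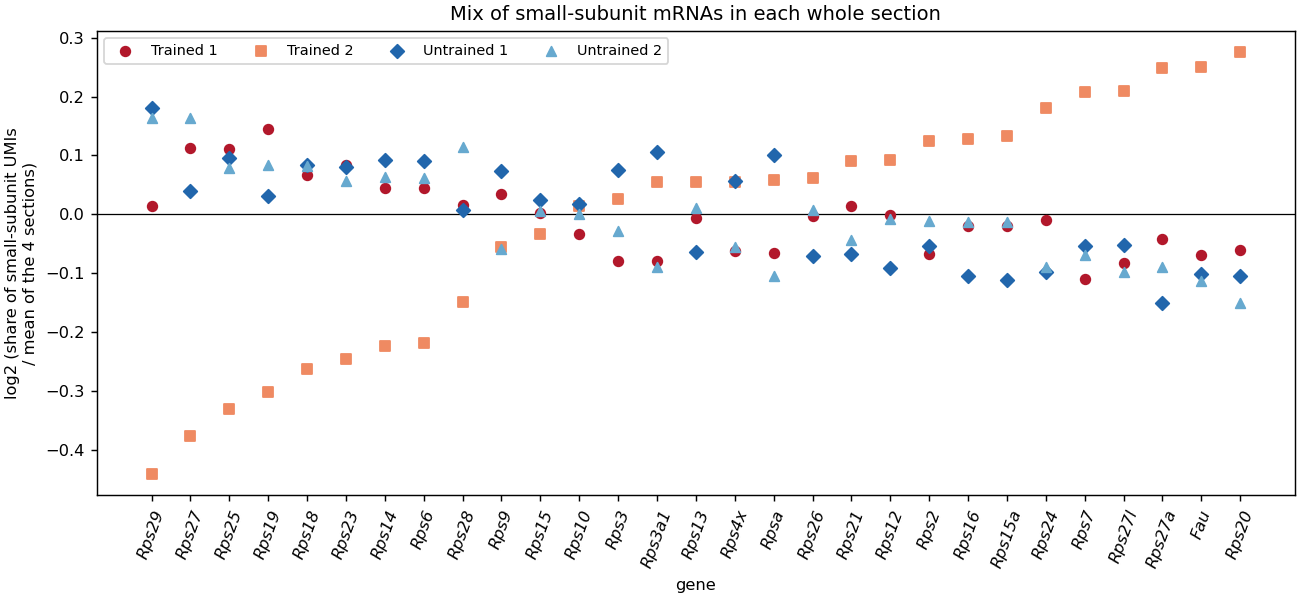
For 29 of the 33 members, the share of the small-subunit UMIs of a whole section, as the log2 ratio to its mean over the 4 sections (vertical axis), with 1 symbol per section and the members along the horizontal axis. The Trained 2 squares run from the lowest value for Rps29 (5.35% against 7.34% to 8.23%) to the highest for Rps20 (3.59% against 2.67% to 2.84%), while the symbols of the other 3 sections mostly lie together on the other side of 0.

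No member passed between Trained and Untrained sections after adjustment. Over whole sections 0 of 33 members passed edgeR (2 of 13810 genes, or 0.0145%, did), and Rps20 alone had an unadjusted p under 0.05, as 7.96% of all genes did. DESeq2 and limma voom also passed 0, with 2 and 3 members under an unadjusted 0.05. In spots of CA1, CA3 and DG 0 of 33 passed (0 of 9071 genes, 0%), with 1 under an unadjusted 0.05 by edgeR (4.62% of all genes), 0 by DESeq2 and 5 by limma voom. The shares of all genes are those of edgeR, so the DESeq2 and limma voom counts have no such share beside them. The standard errors on the log2 scale were 0.11 to 0.19 over whole sections and 0.14 to 0.33 in the hippocampal spots.

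Most members nonetheless had higher fitted values in the Trained sections. Over whole sections 23 of 33 were above 0 (51.6% of all genes were), with a median log2 difference of 0.06 (0.01 over all genes). Both Trained sections lay above both Untrained ones for 22 members, against 28.8% of all genes, and below for 0, against 12.1%. In the hippocampal spots 25 of 33 were above 0 (50.4% of all genes), with a median of 0.12 (0.00 over all genes). Both Trained sections were above for 15 members (18.3% of all genes) and below for 1, Rps29 (15.1%). The members come from the same 4 libraries and are not independent of each other.

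Rps20, a protein of the head, had the highest fitted value over whole sections, with 644 (Trained 1), 790 (Trained 2), 522 (Untrained 1) and 581 CPM (Untrained 2). The groups did not overlap (log2 difference of 0.30, adjusted p = 0.602, edgeR). Rps27a (0.28) and Fau (0.26) came next. Without Trained 2 the values were 0.20 for Rps20, 0.20 for Rps27a and 0.17 for Fau, and without Untrained 1 they were 0.23, 0.16 and 0.17. The largest differences downward were those of Rps29 (-0.30), Rps27 (-0.15) and Rps25 (-0.11). Rps29 had 1663, 1179, 1559 and 1767 CPM in the same order, so only Trained 2 was low and the groups overlapped. These 3 rested on Trained 2: without Trained 1 the values were -0.63, -0.51 and -0.44 and all 3 passed, as did 5.96% of all genes, while without Trained 2 the values were -0.03, 0.13 and 0.15. Such a fit has Trained 2 alone in the Trained group, so its spread comes from the Untrained sections and the lone section is assumed to vary like them. Without Untrained 2 Rps27 was at 0.02.

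In the hippocampal spots Rps27l had the highest fitted value (0.52, SE 0.33; 37, 99, 24 and 40 UMIs in the 4 sections). Its 54.2 and 110 CPM in Trained overlapped with 68.0 and 52.9 CPM in Untrained mice, and without Trained 2 it was at -0.15. Of the members with at least 100 UMIs in each section Rps20 again led, with 642 and 778 CPM in Trained against 502 and 573 in Untrained mice (log2 difference of 0.38, adjusted p = 0.962, edgeR). Rps12 (0.32) had 587 and 699 against 508 and 516 CPM, and Fau (0.32) had 894 and 1153 against 757 and 871 CPM. Both Trained values were above both Untrained values for these 3. Without Trained 2 the differences were 0.19 for Rps20, 0.14 for Rps12 and 0.07 for Fau. Downward, Rps29 was at -0.27 with 1490 and 1354 against 1602 and 1781 CPM, and it stayed between -0.33 and -0.22 with any section left out. Rps6 was at -0.21, with 451 and 347 against 442 and 466 CPM, and Rps23 at -0.11, and in both the groups overlapped. Without Trained 2 they were at -0.07 and -0.00. In these spots Trained 2 also had the highest astrocyte (3258 CPM against 2086 to 2314), microglia (620 against 385 to 418) and white matter (4124 against 2487 to 3330) marker sums, with no marker of these lists at 0 in all sections. The groups did not overlap in 8 of the 19 marker lists. Blood markers summed to 686 and 668 CPM in Trained against 403 and 480 in Untrained sections, interneuron markers to 827 and 1169 against 771 and 757, and meninges markers to 54.2 and 60.9 against 93.6 and 107. Layer 6 cortex and ependyma markers were also higher in both Trained sections, and thalamus, hypothalamus and medial habenula markers lower. The part of these cells in the values was not tested.

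**Figure D5:**
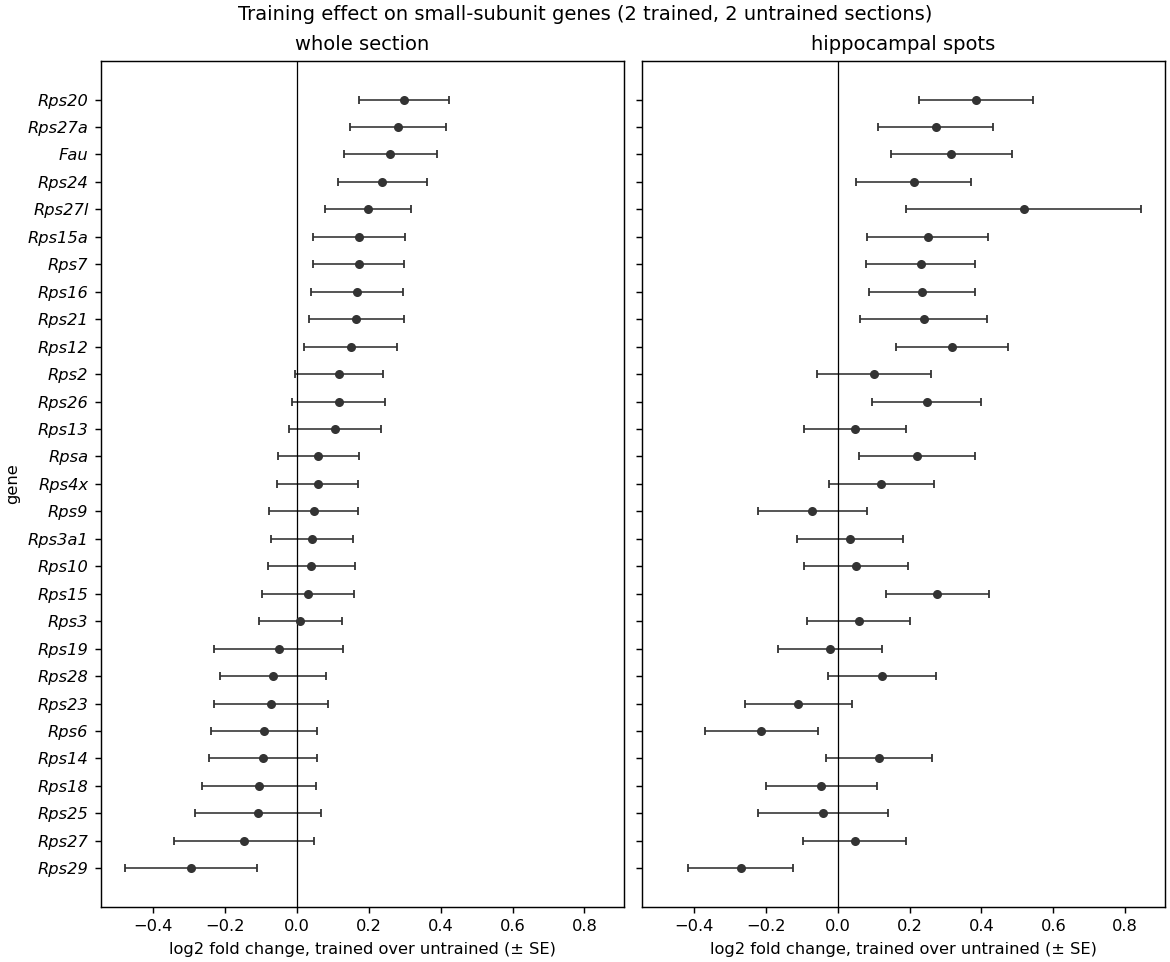
Fitted log2 fold change, Trained over Untrained (horizontal axis), of 29 of the 33 members over whole sections (left) and in hippocampal spots (right), with bars of 1 standard error and members ordered by the left panel. Values run from -0.30 for Rps29 to 0.30 for Rps20 on the left and from -0.27 for Rps29 to 0.52 for Rps27l, which has the widest bar, on the right; none passed at 0.05.

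Summed over the members, the share of UMIs was 2.24% ± 0.0444 (SD, n = 2) in Trained and 2.03% ± 0.198 in Untrained sections, and the groups did not overlap. The difference was 0.201 percentage points (exact permutation test, two-sided, p = 0.333, the smallest that 2 against 2 sections allow). It was 0.061 without Untrained 1 and 0.341 without Untrained 2. Once the mitochondrial genes, Bc1, Ttr and Gm42418 were taken out of the total, the difference was 0.109 and the groups overlapped (exact permutation p = 0.667). In the hippocampal spots the share was 2.18% (Trained 1), 2.30% (Trained 2), 1.93% (Untrained 1) and 2.13% (Untrained 2), a difference of 0.212 (0.109 without Untrained 1), and 0.190 without those genes (exact permutation p = 0.333 for both).

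By region, the Trained mean share was higher in 13 of 14 regions. With the mitochondrial genes, Bc1, Ttr and Gm42418 out of the total it was higher in 10, and layer 5 cortex turned from 0.012 to -0.119 percentage points, upper-layer cortex from 0.119 to -0.021 and hypothalamus from 0.107 to -0.018. Without Untrained 1 the difference was -0.217 in hypothalamus and -0.117 in striatum, and without Trained 1 it was -0.087 in layer 5 cortex, -0.027 in medial habenula and -0.012 in striatum. Trained sections were both above the Untrained ones in 5 regions, CA1, DG, layer 6 cortex, thalamus and choroid plexus, both below in meninges, and overlapped in 8. No member passed in any region: 0 of 460 tested pairs by edgeR, where 0.0515% of all gene-region pairs passed, with 17 of the 460 under an unadjusted 0.05 (5.59% of all gene-region pairs). The lowest adjusted p was that of Rps10 in meninges (0.273, log2 difference of -0.74). The median over members was above 0 in 9 of 14 regions, with 0.22 in DG, 0.21 in CA1, 0.26 in ependyma and 0.19 in choroid plexus. It was below 0 in meninges (-0.21), layer 5 cortex (-0.08), upper-layer cortex (-0.02), striatum (-0.01) and hypothalamus (-0.01). Without Trained 1, with the spread again from the Untrained sections alone, 12 of 461 pairs passed (2.60%; 0.7% of all gene-region pairs did, and 1.58% of all genes in DG): Fau, Rps12, Rps20, Rps21, Rps24 and Rps27a were higher in DG (0.61 to 0.69), Rps29 was lower in hypothalamus, layer 6 and upper-layer cortex, thalamus and white matter (-0.88 to -0.73), and Rps27 was lower in thalamus (-0.57). In DG, Trained 2 had the highest astrocyte (4332 CPM against 2311 to 2487) and microglia (700 against 359 to 402) marker sums and the lowest sum of DG markers (593 against 720 to 1040), and their part in these calls was not tested. Leaving out any other section passed 0. The test of whether training acted differently in 1 region than in the others passed 0 of 462 pairs by edgeR (0.00892% of all gene-region pairs), with 24 under an unadjusted 0.05 (4.81%). DESeq2 passed 1, Rps10 in meninges (-0.74, adjusted p = 0.0322).

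The genes around the small subunit did not pass either. No gene of the large-subunit, initiation, assembly, signaling or other TOP lists passed between Trained and Untrained over whole sections or in hippocampal spots. Over whole sections Rpl21 (0.39) and Rpl11 (0.28) had the highest and Rpl37a (-0.12) and Rpl3 (-0.10) the lowest values of the large subunit. Among initiation factors Eif3j1 (0.26), Eif2s2 (0.18), Eif4b (-0.22) and Eif4h (-0.28) were the extremes. In the hippocampal spots the large-subunit extremes were Rpl11 (0.46), Rpl21 (0.40), Rpl7l1 (-0.39) and Rpl3 (-0.24), those of initiation Eif3k (0.40), Eif3f (0.39), Pabpc1 (-0.35) and Eif1ax (-0.30), and those of assembly Rrs1 (0.47), Ltv1 (0.46), Rrp12 (-0.85) and Wdr43 (-0.46). Among the signaling genes Rptor, the mTOR complex scaffold, was at 0.53, Rps6kb2 at 0.28, Rps6ka3 at -0.74 and Tsc2 at -0.43. Large-subunit values had medians of 0.10 over whole sections and 0.12 in the hippocampal spots, beside 0.06 and 0.12 for the small subunit.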

How the data were processed

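The values that the authors deposited are raw UMI counts per gene and spot, with no normalization. The methods name Space Ranger 2.0.0 and mm10, the submitters' processing notes Cell Ranger 8, STAR and mm39, and the matrix header spaceranger 1.2.2, so the version is not settled; coordinates and sequences here are RefSeq GRCm38.p6. Section images were not used here. Marker scores pooled over 19 spots assigned spots to regions (score of at least 0.5, margin 0.1); this pooling was chosen after marker maps were seen.

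UMIs were summed per section, or per region and section, and tested with edgeR 4.0.16 (filterByExpr, TMM, glmQLFit, glmQLFTest; R 4.3.3), with Benjamini-Hochberg adjustment over all genes tested; region fits had the section as a block. The sums of a region fit come from 4 sections. Alternatives used DESeq2 1.42.0, limma 3.58.1 (voom), other filters, scalings and assignments, thinning, the rank-sum test and leaving out sections; voom, robust estimation, 7-spot pooling and leaving out the weakest regions were chosen after seeing the data. The edgeR steps were tested on simulated data. Shares were compared with exact permutation tests.

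Named members were those that passed in a comparison, otherwise the 3 largest differences each way with at least 100 UMIs in each section, and paralogs; of the lists (large subunit, initiation and 40S-bound, assembly, signaling, other TOP), counts and the 2 extremes each way. Some members and list genes enter every fit and count but are not reported by name here. The members and lists were chosen with earlier results of these data known. Counts are by 3′ reads, so levels of different genes are not compared.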

Additional observations from a re-analysis of the deposited data

Results flagged for a closer look

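In meninges both Trained sections had a lower small-subunit share of UMIs than both Untrained sections (a difference of -0.102 percentage points), and in 5 regions both Trained sections were higher, so the sections of these region pairs went opposite ways. The training difference in choroid plexus exceeded that in meninges by 0.580 percentage points, that in CA1 by 0.374, that in DG by 0.370, that in layer 6 cortex by 0.275 and that in thalamus by 0.270. These region pairs were picked because the groups lay apart in opposite ways. The exact permutation test of the difference over sections (two-sided) therefore had to give p = 0.333 for each. That is the smallest p that 2 against 2 sections allow, and it adds no support. With the mitochondrial genes, Bc1, Ttr and Gm42418 out of the total, Trained sections were still both lower in meninges and both higher in CA1, DG and choroid plexus, while in layer 6 cortex and thalamus the groups overlapped. Without Untrained 1 the training difference was 0.050 in layer 6 cortex (0.173 with all sections), 0.055 in thalamus (0.168), 0.170 in CA1 (0.272) and 0.173 in DG (0.268), and that in meninges was -0.062 without Trained 2. In the meninges spots the meninges markers summed to 586 and 540 CPM in Trained against 1449 and 1090 in Untrained sections and the upper-layer cortex markers to 452 and 378 against 212 and 223, both without overlap. Choroid plexus markers in these spots summed to 3640 CPM (Trained 1), 648 (Trained 2), 778 (Untrained 1) and 14401 (Untrained 2). In the choroid plexus spots Trained 2, with the highest share there (2.86%), had the lowest sum of choroid plexus markers (26796 CPM against 105422 to 169692) and the highest of white matter markers (24378 against 6911 to 11312). Ttr is itself a choroid plexus marker. With the mitochondrial genes, Bc1, Ttr and Gm42418 out of the total, Trained 1 had the highest share there (3.58%). Trained 2 (3.19%) then lay close to Untrained 2 (3.14%). The part of the marker genes in the differences was not tested.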

How the results depend on the processing

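The 186 member-region pairs became 113 without a filter on low counts, 51 after thinning every sum to the smallest total and 24 after scaling to the ribosomal protein genes, and 125 to 182 with 1 section left out. Thinning and the missing filter left fewer counts or more tests by construction. The loss by thinning was uneven: choroid plexus kept 17 of 20, CA3 8 of 19, hypothalamus 6 of 29, white matter 6 of 24, thalamus 5 of 31, upper-layer cortex 3 of 26 and layer 5 cortex 1 of 24. DESeq2 (232 pairs), plain totals (170), a stricter assignment of spots (140 of 396), scores pooled over 7 spots (160 of 429), the total without mitochondrial genes, Bc1, Ttr and Gm42418 (193) and leaving out ependyma, meninges and hypothalamus (147 of 363) stayed within 1.5 times. The shares of all gene-region pairs that passed under these other settings are not given here, except for the ribosomal scale above. The 7-spot assignment had no CA3 and the stricter one no CA3 or layer 5, so these gave no value there. Plain totals moved the median of all genes in the regional comparison by -0.20 in choroid plexus and 0.13 in medial habenula, where they passed 11 and 6 members. Of the alternatives to the regional values of named members, 229 kept their side of the threshold and 13 fell below it, all with the same direction. For training over whole sections, 0 to 3 members passed with 1 section left out, and 0 to 12 pairs over the single regions, the higher number being without Trained 1 in both, where the lone section of a group is assumed to vary like the other group. In hippocampal spots the rank-sum test over single spots, the test that the methods name, passed 21 of 33 members (20 higher, 1 lower; 3620 of 11895 genes), but spots of 1 section are not replicates, and after thinning each spot to 500 UMIs it passed 1, lower (9 of 7493 genes). The interaction passed 1 pair by DESeq2. Over whole sections Rps27 turned from -0.15 to 0.13 without Trained 2 and to 0.02 without Untrained 2, and Rps25 from -0.11 to 0.15 without Trained 2; without Trained 1 Rps29, Rps27 and Rps25 passed at -0.63, -0.51 and -0.44; the cause was not tested. No pairing of the mice by replicate number is described. The correlation of deviations was 0.0127 over 9071 genes, which with 2 mice per group cannot exclude a pairing. With the replicate number as a block 0 members passed over whole sections, in hippocampal spots and in single regions. The values are limited, among others, by the 2 mice per group, by the 20 to 46 spots of CA3 in a section and, for Rps27l in choroid plexus, by its 7 to 29 UMIs.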

Other observations

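Other mRNAs of the TOP class were also fitted by region. In white matter 6 of 12 were higher (13.5% of all genes) and none lower, with Eef1d, a subunit of elongation factor 1, at 0.60 and Tpt1 at 0.46 on the log2 scale, and in thalamus 6 were lower (14.3% of all genes), with Btf3 at -0.29. In CA1 2 of the list were lower (3.18% of all genes) and in striatum 1 (5.69%), where 4 small-subunit genes were higher. Tpt1 was lower in hypothalamus, where 7 of the list were higher. In DG 3 of the list and 6 of 49 large-subunit genes were higher (9.95% of all genes), and in medial habenula 2 and 3 (4.99% of all genes), with 1 large-subunit gene lower there. Between Trained and Untrained no gene of the list passed. Over whole sections its extremes were Snhg1 (0.22), Gas5 (0.11), Eef1d (-0.16) and Tpt1 (-0.09), and in hippocampal spots Snhg1 (0.52), Gas5 (0.23), Eef1d (-0.22) and Btf3 (-0.14). Gas5 and Snhg1 are host genes of small nucleolar RNAs. The assembly factors over whole sections ran from Fbl (-0.43) and Riok3 (-0.23) to Riok1 (0.18) and Nop56 (0.22), and the signaling genes from Larp1 (-0.26) and Rps6ka2 (-0.25) to Rptor (0.21) and Rps6ka1 (0.44), none of which passed.

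Across the spots of a section the small-subunit share and the large-subunit share had a Spearman correlation of 0.534 (2601 spots), 0.646 (2829), 0.495 (1821) and 0.547 (2425) in Trained 1, Trained 2, Untrained 1 and Untrained 2. Both shares are parts of the same spot's total and its library. The ratio of small- to large-subunit UMIs over whole sections was 0.663 to 0.704.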
